A study of Mus musculus with 32 samples.

Results

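Mitochondrial biogenesis in mouse cells is driven by nuclear genes. A set of 9 genes grouped as its regulators was followed here through inhibition of the thiol antioxidant systems of fat cells. Not all of them drive biogenesis, since the set also holds genes of mitochondrial fission, transcription termination and membrane transport. The genes were Ppargc1a, Ppargc1b, Esrra, Nrf1, Tfam, Tfb2m, Mterf1a, Mtfr2 and Ucp2, and each was taken from the array when the platform annotation gave exactly its symbol to a probe set. This gave 8 of the 9 genes, out of 21506 genes measured, with 1 probe set for each of the 8. Ucp2, which encodes an inner membrane carrier of the uncoupling protein family, had no probe set under that rule and was not analysed here. Expression was measured on 32 Affymetrix Mouse Gene 2.1 ST arrays of 3T3-L1 adipocytes, a mouse fibroblast line that fills with lipid when it is differentiated in culture. The arrays formed 16 groups of 2. Cells received 1 µM auranofin (AF) together with 100 µM BCNU, AF alone or BCNU alone for 2, 4, 8 or 24 h, control cells were collected at 4, 8 and 24 h, and untreated cells at 0 h. AF blocks thioredoxin reductase and BCNU blocks glutathione reductase, which means that AF+BCNU acted on the recycling of the thioredoxin and the glutathione pools at once. The labels held no control at 2 h, and the 2 h groups were set against the untreated 0 h cells, so each 2 h difference also holds any change over the first 2 h of the experiment. All cells came from 1 line, and the labels did not say whether separate cultures gave the 2 arrays of a group. The p-values therefore reflect only the spread between these arrays, and that spread may be technical.

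In textbook terms, the coactivators PGC-1α (Ppargc1a) and PGC-1β (Ppargc1b) do not bind DNA themselves but are recruited to promoters by factors such as the nuclear receptor ERRα (Esrra) and by NRF1, and they raise transcription of genes for the respiratory chain and for the factors that are imported to read the mitochondrial genome. Among those imported factors, TFAM packages mitochondrial DNA and opens its promoters, TFB2M works with the mitochondrial RNA polymerase to start transcripts, and MTERF1 binds mitochondrial DNA and can stop transcription there. MTFR2 belongs to a family of mitochondrial fission regulators. In adipocytes the PGC-1 coactivators are known from the oxidative and thermogenic programme of brown fat, and both are also expressed in white fat cells.

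Several adipocyte genes were high throughout: over the 16 group means Adipoq lay between 11.4 and 11.7, Fabp4 between 13.1 and 13.2 and Plin1 between 11.3 and 11.6 on the log2 scale, against array medians of 3.55 to 3.69. Car3, of the same marker list, ranged from 5.68 to 7.69. The thermogenic genes Ucp1 (2.32 to 2.84) and Prdm16 (2.44 to 2.79) lay near the 25th percentile of the arrays, which was 2.30 at most. Other genes of brown and beige fat lay higher, among them Cox7a1 (8.77 to 9.46), Cox8b (7.11 to 8.03) and Cidea (5.78 to 7.08). Replicate arrays correlated at 0.993 to 0.995 across genes, and no pair held identical values. A gene was called when its limma adjusted p was under 0.05 and its log2 change over 0.5 in size. Fibroblast genes moved with AF+BCNU: their summed linear level over 14 genes was 8751 to 9013 in AF+BCNU cells and 16088 to 16868 in control cells at 24 h, with 12 of the 14 called lower (4.25% of all genes), and 13725 to 13961 against 16854 to 16909 at 8 h, with 6 called lower (5.58% of all genes). The sum over 14 adipocyte markers was 49688 to 50232 in AF+BCNU cells and 52668 to 55620 in control cells at 24 h, and 47007 to 48476 against 53877 to 55252 at 8 h. Of these markers 2 were called lower at 24 h, Car3 (log2 change -1.67) and Dgat2 (-0.64), beside 4.25% of all genes. At 8 h 2 were called lower, Plin4 (-1.03) and Cebpa (-0.63), beside 5.58%. At 4 h 1 was called lower, Plin4 (-0.79), beside 3.31%. None was called higher at these times. Of 9 macrophage markers 3 were called higher and 1 lower at 24 h (4.88% and 4.25% of all genes), with a summed level of 312.2 to 329.4, against 111.5 to 128.8 in control cells. The log2 changes were 2.81 for Cd68, 1.90 for Itgam, 1.34 for Cd14 and -1.01 for Lyz2. Ptprc (2.02 to 2.45), Adgre1 (1.67 to 2.25) and Csf1r (2.17 to 2.87) stayed near background in all 16 groups. Of 7 endothelial markers 2 were called higher at 24 h (4.88% of all genes), Pecam1 by 2.94 and Kdr by 1.02 on the log2 scale. The summed level of the 7 was 112.6 to 171.0, against 37.2 to 41.1 in control cells. Kdr reached only 3.16 in AF+BCNU cells at 24 h, below the array medians. Over the 16 groups Cdh5 lay at 2.02 to 2.59 and Emcn at 1.52 to 1.89. In bulk RNA a lower share of a cell type and less RNA per cell cannot be told apart, and the part of these shifts in the results below was not tested.

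Under AF+BCNU the PGC-1 coactivator gene Ppargc1b was called lower at all 4 times and Ppargc1a at 24 h, Mterf1a was called lower at 4 and 8 h, and Mtfr2 was called higher at all 4 times, whereas Esrra, Nrf1, Tfam and Tfb2m were not called against control at any time. At 2 h, 1 of the 8 regulators was called higher and 1 lower, beside 1.49% of all genes (0.632% higher and 0.86% lower). At 4 h it was 1 higher and 2 lower, beside 5.84% of all genes (2.53% higher and 3.31% lower). At 8 h it was again 1 higher and 2 lower, beside 11.3% (5.72% higher and 5.58% lower), and so at 24 h, beside 9.13% (4.88% higher and 4.25% lower). Over the 4 times this made 11 calls among 32 values, 4 higher and 7 lower, in 4 genes. All 4 higher calls were of Mtfr2. The regulators were chosen with earlier results of these data known. These counts and those below therefore do not test the set against all genes. The median change of the 8 regulators was -0.13, -0.15, 0.05 and -0.18 at 2, 4, 8 and 24 h, against medians of all genes between 0.00 and 0.05.

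**Figure D1:**
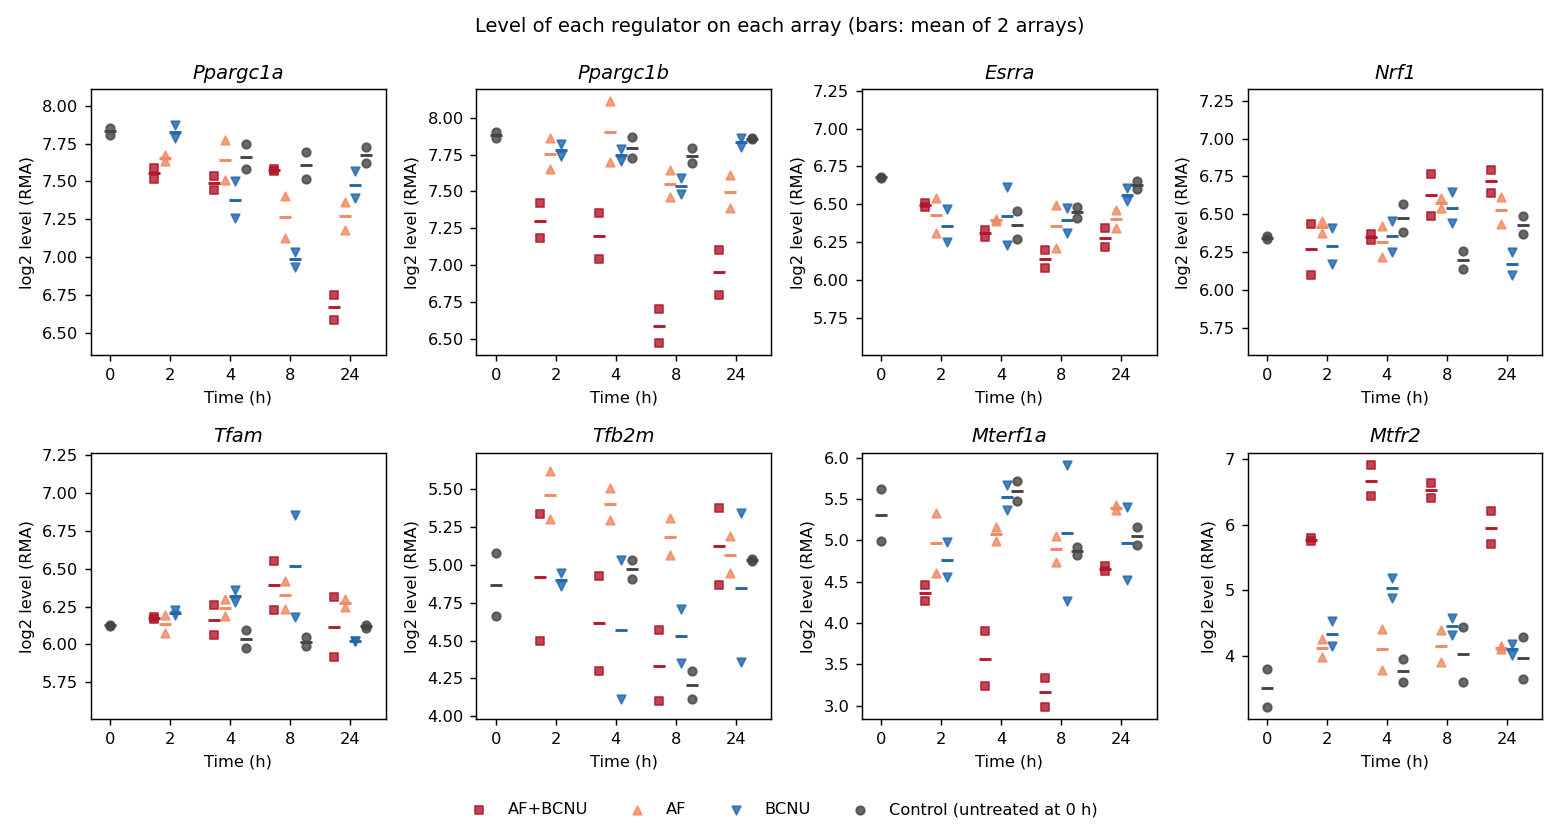
Log2 expression level of the 8 measured regulators on each of the 32 arrays, by time in hours, with AF+BCNU, AF, BCNU and control or untreated cells marked apart; each point is 1 array and each short bar the mean of 2. Mtfr2 in AF+BCNU cells lies above every control array at each time, and Ppargc1a in AF+BCNU cells stands at 6.59 and 6.75 at 24 h.

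Ppargc1a encodes PGC-1α. Its level was 6.59 and 6.75 in AF+BCNU cells at 24 h, against 7.62 and 7.73 in control cells. These were the lowest values of the gene on any array, and the groups did not overlap. The change was -1.0 ± 0.12 (SE of the log2 change, n = 2 per group, as for every ± below), a 2.01-fold lower level (limma adjusted p = 5.93e-06). At the earlier times the gene was much closer to its controls. It stood at 7.52 and 7.59 in AF+BCNU cells at 2 h, against 7.81 and 7.86 in untreated cells. At 4 h it stood at 7.53 and 7.44 in AF+BCNU cells, against 7.58 and 7.75 in control cells. At 8 h it stood at 7.58 and 7.57 in AF+BCNU cells, against 7.51 and 7.70 in control cells. The AF+BCNU arrays were below both reference arrays at 2 and 4 h and lay between the control arrays at 8 h, and none of these 3 changes was called (-0.28, -0.18 and -0.03, adjusted p = 0.293, 0.45 and 0.91). The 95% interval of the 8 h change ran from -0.28 to 0.22. The 24 h effect was below the mean of the 4 and 8 h effects by -0.90 ± 0.15 (adjusted p = 0.000934), in a comparison in which 3.12% of all genes were called.

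BCNU alone gave a call for Ppargc1a at 8 h. Under BCNU the level was 6.94 and 7.03 at 8 h, against 7.51 and 7.70 in control cells, with no overlap. The change was -0.62 ± 0.12 (adjusted p = 0.0053), beside 2.26% of all genes called for BCNU at 8 h. The call was lost without the second control array, without the first BCNU array and with only the 8 h arrays in the fit (adjusted p up to 0.133). At 24 h the BCNU arrays stood at 7.57 and 7.39, against 7.62 and 7.73 in control cells, a change of -0.20 that was not called. AF alone gave 7.40 and 7.12 at 8 h (change -0.34, adjusted p = 0.189) and 7.36 and 7.18 at 24 h (change -0.40, adjusted p = 0.124), both below the control arrays and neither called. At 8 h, then, Ppargc1a was lower under BCNU than under AF+BCNU, and the direct comparison of AF+BCNU with BCNU gave 0.59 ± 0.12 (adjusted p = 0.00213). The sum of the 2 single-drug changes at 8 h was -0.96, against an observed -0.03, and this departure of 0.93 ± 0.17 was called (adjusted p = 0.00173). At 24 h the order was the reverse, with AF+BCNU below BCNU by -0.81 ± 0.12 (adjusted p = 9.23e-05) and below AF by -0.60 ± 0.12 (adjusted p = 0.00211). The BCNU change, the direct comparison with BCNU and the departure at 8 h all used the same 2 BCNU arrays. With arrays centred on their medians the 8 h difference from BCNU was 0.48 and not called. The 8 h departure was not called with only the 8 h arrays in the fit (limma adjusted p = 0.0607).

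A promoter window of Ppargc1a is shown because a cAMP response element is a textbook control point of this gene. It is the RefSeq window of 250 bases before to 50 after the start, at chr5:51567676-51567975 on the minus strand of GRCm38.p6, with a match to the core element TGACGT (searched on both strands, here as its reverse complement ACGTCA, starting at position -50 from the start) in capitals. The core occurs in 7.51% of 32851 mouse promoter windows of the same length, and the match is a description of the letters only. The full cAMP response element TGACGTCA was not found in this window. The annotated gene reaches position 52115853, upstream of the window on the minus strand, so this start is not its outermost one. Whether this window is the promoter that holds the textbook element was not tested.
Ppargc1a: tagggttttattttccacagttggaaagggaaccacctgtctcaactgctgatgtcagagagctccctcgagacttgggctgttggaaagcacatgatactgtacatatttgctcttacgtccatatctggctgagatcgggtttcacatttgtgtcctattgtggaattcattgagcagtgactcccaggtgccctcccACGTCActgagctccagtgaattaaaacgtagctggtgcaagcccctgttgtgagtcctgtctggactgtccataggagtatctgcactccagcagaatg

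Ppargc1b encodes PGC-1β, the close relative that shares most partners of PGC-1α. It was lower in AF+BCNU cells from the first time point. Its level was 7.42 and 7.18 in AF+BCNU cells at 2 h, against 7.90 and 7.86 in untreated cells, a change of -0.58 ± 0.14 (adjusted p = 0.038). At 4 h it was 7.04 and 7.35 in AF+BCNU cells, against 7.73 and 7.87 in control cells (-0.60 ± 0.14, adjusted p = 0.0108). The largest of the 4 changes was that at 8 h. There the level was 6.47 and 6.70 in AF+BCNU cells, against 7.69 and 7.79 in control cells, which was 2.23-fold lower (-1.16 ± 0.14, adjusted p = 9.13e-06). At 24 h it was 6.80 and 7.11 in AF+BCNU cells, against 7.86 on both control arrays (-0.91 ± 0.14, adjusted p = 0.000172). At each of the 4 times both AF+BCNU arrays lay below both reference arrays. The early calls were the weaker: the 2 h change lost its call when any 1 of its 4 arrays was left out (adjusted p up to 0.264 over all alternatives), and the 4 h change without the second control or the first AF+BCNU array (up to 0.167).

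Neither drug alone gave a call for Ppargc1b. Its changes under AF were -0.13, 0.11, -0.19 and -0.36 at 2, 4, 8 and 24 h, with the smallest adjusted p at 24 h (0.328). Under BCNU they were -0.10, -0.05, -0.21 and -0.03. At 8 h the single-drug changes summed to -0.40, against -1.16 observed, and the departure of -0.76 ± 0.20 was called (adjusted p = 0.0255), beside 7.46% of all genes called for the interaction at 8 h. It was lost under 5 of 17 alternatives, namely without the first control, AF, BCNU or AF+BCNU array at 8 h and with only the 8 h arrays in the fit (adjusted p up to 0.0972). Ppargc1b was also called lower under AF+BCNU than under each drug alone at 4, 8 and 24 h. The 8 h differences of -0.97 ± 0.14 against AF and -0.95 ± 0.14 against BCNU (adjusted p = 0.000101 and 0.000135) and the 24 h difference against BCNU of -0.88 ± 0.14 (adjusted p = 0.000249) kept their calls under every alternative run. The calls at 4 h against AF (-0.71, lost under 3 alternatives, adjusted p up to 0.0997), at 4 h against BCNU (-0.55, lost under 4, up to 0.313) and at 24 h against AF (-0.55, lost under 3, up to 0.23) did not. Each of these 3 was lost without the first AF+BCNU array of its time and with only the arrays of that time in the fit. The call at 4 h against AF was lost too without the second AF array, the one at 4 h against BCNU without either BCNU array, and the one at 24 h without the second AF array.

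**Figure D2:**
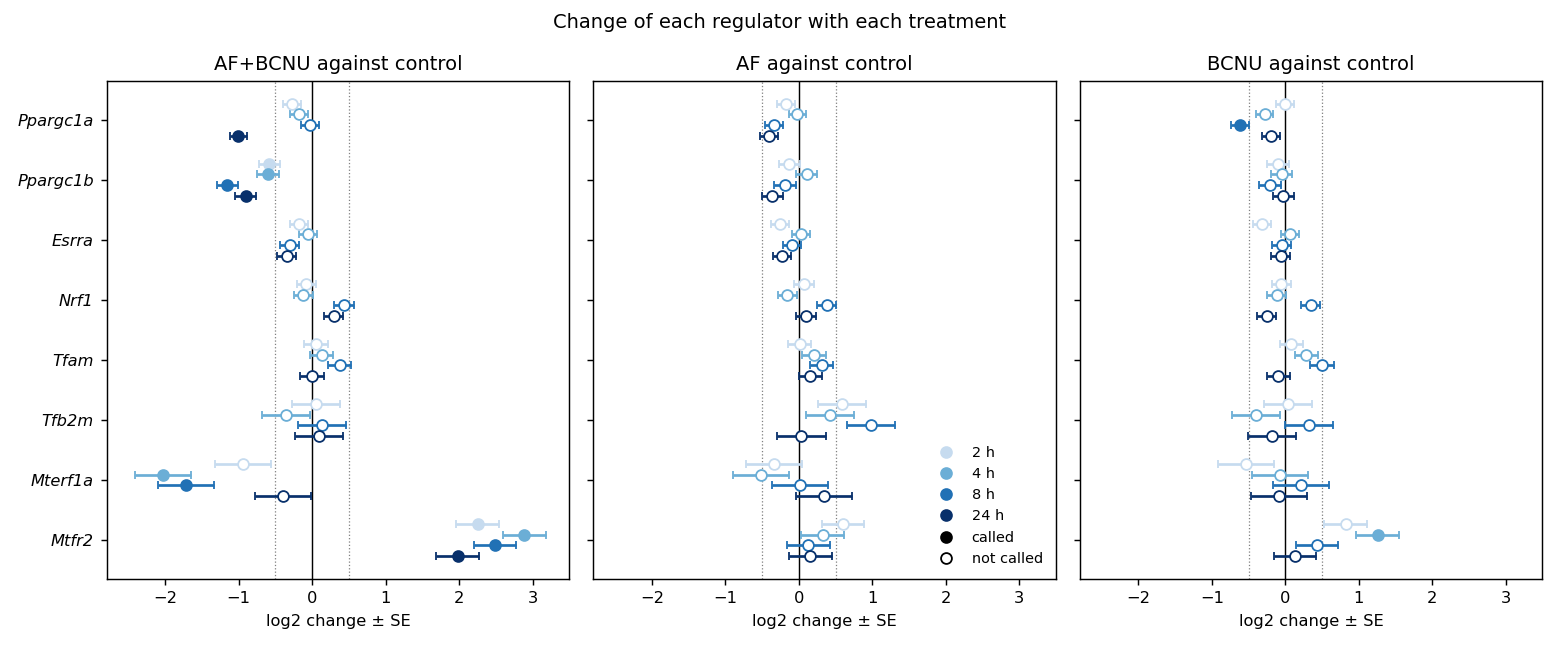
Log2 change of each regulator against control (untreated cells at 2 h) by time in hours, for AF+BCNU, AF and BCNU; bars are 1 SE of the limma fit and filled points are called. The AF+BCNU calls sit in Ppargc1a (24 h), Ppargc1b (all 4 times), Mterf1a (4 and 8 h) and Mtfr2 (all 4 times), and AF alone has none.

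The DNA-binding factors moved little. Esrra encodes ERRα, the nuclear receptor through which PGC-1 coactivators reach many respiratory genes, and its 16 group means spanned 0.54 on the log2 scale. It was 6.22 and 6.34 in AF+BCNU cells at 24 h, against 6.60 and 6.66 in control cells. At 8 h it was 6.20 and 6.08 in AF+BCNU cells, against 6.41 and 6.48 in control cells. Both pairs lay below their controls, but neither change was called (-0.35 ± 0.12 at 24 h, adjusted p = 0.0742, and -0.31 ± 0.12 at 8 h, adjusted p = 0.104). Control cells at 4 h differed from untreated cells by -0.31 ± 0.12 (adjusted p = 0.999).

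Nrf1 encodes nuclear respiratory factor 1, which binds GC-rich sites in front of many respiratory genes. At 8 h it was 6.77 and 6.49 in AF+BCNU cells, against 6.14 and 6.26 in control cells. At 24 h it was 6.64 and 6.79 in AF+BCNU cells, against 6.37 and 6.49 in control cells. The AF+BCNU arrays were above the controls at both times. The 8 h change of 0.43 ± 0.13 had an adjusted p of 0.0282 but stayed under the size threshold, and the 24 h change of 0.29 was not called (adjusted p = 0.172). Each drug alone also stood above control at 8 h, with 6.61 and 6.54 under AF (0.38, adjusted p = 0.178) and 6.44 and 6.64 under BCNU (0.35, adjusted p = 0.189). The 1 call for this gene was AF+BCNU over BCNU at 24 h (0.54 ± 0.13, adjusted p = 0.00829), beside 8.29% of all genes, where the BCNU arrays stood at 6.25 and 6.10. That call was lost without the second array of either group (adjusted p up to 0.0945 over all alternatives).

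Tfam, the gene of the packaging factor of mitochondrial DNA, was among the steadiest of the 8, with group means that spanned 0.50. At 8 h it was 6.23 and 6.55 in AF+BCNU cells, against 5.99 and 6.05 in control cells, and the change of 0.37 ± 0.16 was not called (adjusted p = 0.128). At 24 h it was 5.92 and 6.31 in AF+BCNU cells, on either side of 6.11 and 6.13 in control cells. The change there was 0.00, with a 95% interval from -0.34 to 0.33. The highest single array was 6.85, the first under BCNU at 8 h, whose partner stood at 6.18, and the BCNU change at that time was 0.50 ± 0.16 (adjusted p = 0.101). The wide gap between those 2 arrays decided this value: the change was 0.83 without the second array and 0.16 without the first.

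Tfb2m, the initiation factor of the mitochondrial RNA polymerase, varied more between replicates, with a median difference of 0.34 and a largest of 0.98 between the arrays of a group. AF+BCNU and control arrays overlapped at every time, and the AF+BCNU changes of 0.05, -0.36, 0.13 and 0.09 at 2, 4, 8 and 24 h were not called. The largest difference came with AF at 8 h, where the level was 5.31 and 5.06, against 4.30 and 4.11 in control cells. These arrays did not overlap, but with an SE of 0.33 the change of 0.98 was not called (adjusted p = 0.155). The control group at 8 h was also the lowest of the 16 groups for this gene.

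Mterf1a, a gene of mitochondrial transcription termination factor 1, was called lower at 4 and 8 h. Its level was 3.23 and 3.91 in AF+BCNU cells at 4 h, against 5.71 and 5.48 in control cells. By 8 h it was 3.34 and 2.98 in AF+BCNU cells, against 4.92 and 4.83 in control cells. Both times separated the groups by over 1 log2 unit, and the changes were -2.03 ± 0.38 at 4 h (4.08-fold lower, adjusted p = 0.00156) and -1.72 ± 0.38 at 8 h (3.29-fold lower, adjusted p = 0.00338). The AF+BCNU means of 3.57 and 3.16 lay near or below the array medians (3.55 to 3.69), which limits these fold changes. At 2 h the arrays stood at 4.26 and 4.46 in AF+BCNU cells, against 4.99 and 5.62 in untreated cells (-0.94 ± 0.38, adjusted p = 0.254). By 24 h they stood at 4.69 and 4.63 in AF+BCNU cells, against 5.17 and 4.95 in control cells (-0.40 ± 0.38, adjusted p = 0.605). Neither outer time was called, and the 95% interval of the 24 h change ran from -1.20 to 0.40. The 24 h effect stood 1.47 ± 0.47 above the mean of the 4 and 8 h effects, which was not called (adjusted p = 0.102).

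Neither drug alone gave a call for Mterf1a. At 2 h the level was 4.61 and 5.33 under AF and 4.56 and 4.98 under BCNU, against 4.99 and 5.62 in untreated cells, with changes of -0.34 and -0.54 (adjusted p = 1 and 0.964) beside the uncalled -0.94 of AF+BCNU. Both BCNU arrays lay below both untreated arrays there. At 4 h it was 5.0 and 5.16 under AF, both below the control arrays, and 5.67 and 5.37 under BCNU, with changes of -0.52 and -0.08 (adjusted p = 0.889 and 0.98). At 8 h the BCNU arrays were far apart at 5.91 and 4.26, while the AF arrays stood at 4.73 and 5.05. The departure from additivity at 8 h was -1.94 ± 0.54 (adjusted p = 0.0313). It was lost under 7 of 17 alternatives, among them without either control, either AF, the first BCNU or the second AF+BCNU array at 8 h (adjusted p up to 0.17 over all alternatives). Mterf1a was called lower under AF+BCNU than under AF and under BCNU at both 4 and 8 h, but each of these calls was lost under at least 1 alternative. Against BCNU at 8 h the difference was -1.93 ± 0.38 (adjusted p = 0.00166), and without the first BCNU array it was -1.10 and no longer called (adjusted p = 0.0507). Against AF at 8 h it was -1.73 (adjusted p = 0.00367), lost with only the 8 h arrays in the fit (0.0607). At 4 h the difference from AF of -1.51 (adjusted p = 0.0171) was lost without either AF array or the first AF+BCNU array (up to 0.198), and that from BCNU of -1.95 (adjusted p = 0.00385) without the first AF+BCNU array (0.0853).

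The mouse genome holds a second copy of this gene, Mterf1b, and the RefSeq promoter windows of the copies are shown because they are nearly the same sequence. With an offset of 7 bases, 291 of 293 overlapping bases were identical (99.3%). Probes may not separate the copies, so the values of each are uncertain. The windows lie at chr5:3893884-3894183 on the minus strand and at chr5:4192117-4192416 on the plus strand of GRCm38.p6. Capitals mark the full cAMP response element TGACGTCA, present in 1.79% of promoter windows and at position -51 from the Mterf1a start and -58 from the Mterf1b start, and the GABP site CCGGAAG, present in 8.86% and at -24 and -31. The full element holds the core in both orientations.
Mterf1a: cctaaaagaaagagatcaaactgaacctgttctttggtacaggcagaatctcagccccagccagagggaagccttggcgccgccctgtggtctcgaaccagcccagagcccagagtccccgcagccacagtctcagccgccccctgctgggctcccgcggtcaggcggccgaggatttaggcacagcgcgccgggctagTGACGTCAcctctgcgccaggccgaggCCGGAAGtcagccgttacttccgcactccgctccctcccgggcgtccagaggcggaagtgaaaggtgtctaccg
Mterf1b: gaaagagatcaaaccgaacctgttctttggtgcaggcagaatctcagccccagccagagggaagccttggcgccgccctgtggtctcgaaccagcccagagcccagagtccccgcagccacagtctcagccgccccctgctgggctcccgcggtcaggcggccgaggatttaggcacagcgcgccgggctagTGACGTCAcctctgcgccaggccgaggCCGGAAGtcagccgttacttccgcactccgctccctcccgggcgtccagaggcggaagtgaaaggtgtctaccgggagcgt

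The probe set of Mterf1b lay close to background in most groups. It stood at 1.96 and 1.79 in AF+BCNU cells at 8 h, against 2.61 and 3.09 in control cells, and was called lower there (-0.98 ± 0.31, adjusted p = 0.0334). At 4 h it gave 2.96 and 2.09 in AF+BCNU cells, against 2.08 and 2.30 in control cells (0.34, adjusted p = 0.60). At 4 h, where Mterf1a was called lower, Mterf1b was thus not called, and the difference between the 2 probe sets was not tested.

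Mtfr2, of the fission regulator family, changed the most of the 8 and in the other direction. Its level was 5.75 and 5.79 in AF+BCNU cells at 2 h, against 3.81 and 3.23 in untreated cells. At 4 h it was 6.90 and 6.43 in AF+BCNU cells, against 3.61 and 3.95 in control cells. By 8 h it was 6.4 and 6.63 in AF+BCNU cells, against 4.45 and 3.61 in control cells. At 24 h it was still 5.70 and 6.20 in AF+BCNU cells, against 3.65 and 4.28 in control cells. At every time both AF+BCNU arrays stood above all 8 control and untreated arrays, which reached 4.45 at most and lay near the array medians, so Mtfr2 was weakly detected without drug. The changes were 2.25, 2.89, 2.49 and 1.98 at 2, 4, 8 and 24 h, each with an SE of 0.29 (adjusted p = 0.000174, 2.2e-06, 4.33e-06 and 6.88e-05). The 4 h change was 7.40-fold. The 24 h effect was below the mean of the 4 and 8 h effects by -0.71 ± 0.35, which was not called (adjusted p = 0.361).

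Under BCNU alone Mtfr2 was called higher at 4 h. The level was 4.88 and 5.19 under BCNU at 4 h, against 3.61 and 3.95 in control cells (1.25 ± 0.29, adjusted p = 0.043), beside 0.79% of all genes called. This call was lost when any 1 of the 4 arrays was left out (adjusted p up to 0.26 over all alternatives). At 2 h the BCNU arrays stood at 4.15 and 4.53, both above the untreated arrays at 3.81 and 3.23, and the change of 0.82 was not called (adjusted p = 0.687). At 8 and 24 h the BCNU arrays overlapped the controls. The 24 h effect of BCNU was not called apart from the mean of its 4 and 8 h effects (-0.71 ± 0.36, adjusted p = 0.50). The AF changes were 0.60, 0.32, 0.13 and 0.16, none called, and AF against BCNU at 4 h gave -0.93 ± 0.29 (adjusted p = 0.214). The single-drug changes summed to 0.56 at 8 h and 0.29 at 24 h, against 2.49 and 1.98 observed. Both departures were called (1.93 ± 0.41, adjusted p = 0.0055, and 1.69 ± 0.41, adjusted p = 0.021), the second beside 3.77% of all genes. The 24 h departure was lost under 6 alternatives, among them without either AF array or without the second control, BCNU or AF+BCNU array at 24 h (adjusted p up to 0.126).

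The RefSeq promoter window of Mtfr2 is shown because it was the only one among the regulators with a window that held the palindromic NRF1 site. The window lies at chr10:20347569-20347868 on the plus strand of GRCm38.p6, and the match to GCGC, any 2 bases and GCGC again, at position -128 from the start, is in capitals. This motif occurs in 6.23% of promoter windows. The Tfam window held a GABP site at position -47, the windows of Esrra, Nrf1 and Tfb2m held none of the motifs searched (NRF1, GABP, the cAMP response element and its core, and the ERR element TNAAGGTCA, present in 1.28%), and no window was examined for Ppargc1b.
Mtfr2: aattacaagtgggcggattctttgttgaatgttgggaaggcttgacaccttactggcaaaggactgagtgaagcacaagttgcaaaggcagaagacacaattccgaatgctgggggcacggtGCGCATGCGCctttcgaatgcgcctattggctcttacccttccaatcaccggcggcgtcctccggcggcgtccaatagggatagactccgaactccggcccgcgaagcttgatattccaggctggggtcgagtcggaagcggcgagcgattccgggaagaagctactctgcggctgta

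**Figure D3:**
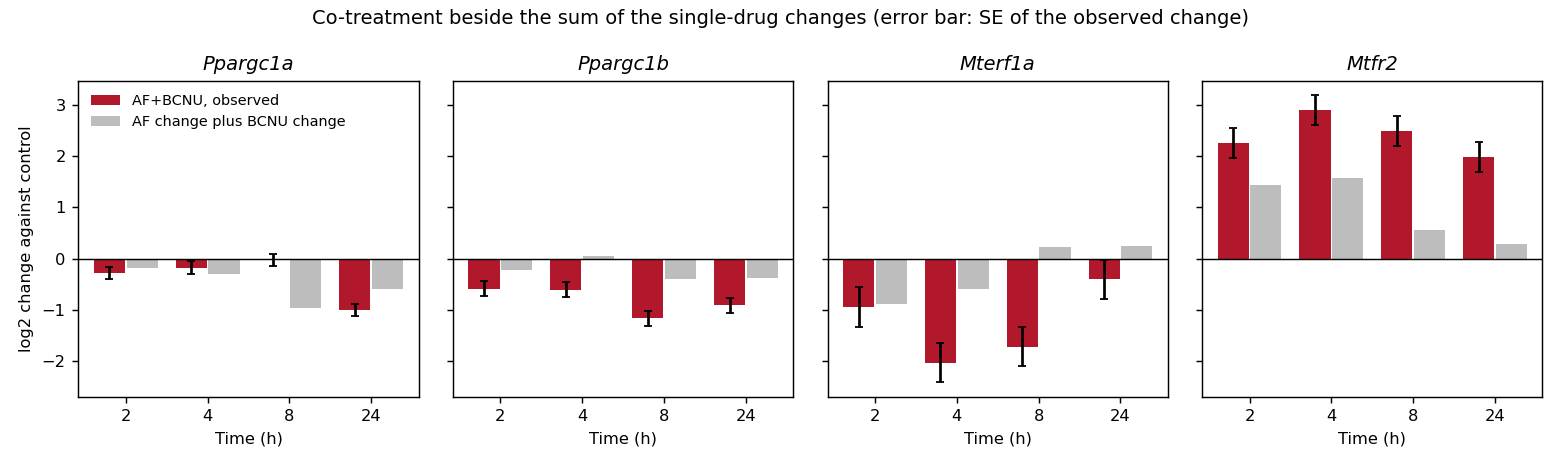
Observed log2 change of AF+BCNU against control beside the sum of the AF and BCNU changes, for 4 regulators by time in hours; error bars are 1 SE of the observed change. At 8 h the observed change and the sum are -0.03 and -0.96 for Ppargc1a, -1.16 and -0.40 for Ppargc1b, -1.72 and 0.23 for Mterf1a and 2.49 and 0.56 for Mtfr2.

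Across the regulators, the single drugs gave few calls. AF alone gave 0 of 32, with 5 values at an unadjusted p under 0.05 and a smallest limma adjusted p of 0.124, beside 0.0697%, 0.284%, 1.43% and 1.28% of all genes at 2, 4, 8 and 24 h. BCNU alone gave 2 of 32, the Ppargc1a value at 8 h and the Mtfr2 value at 4 h, and none at 2 or 24 h, where 0.0465% and 0.191% of all genes were called. No regulator was called between AF and BCNU in 32 comparisons (6 at an unadjusted p under 0.05, smallest adjusted p 0.203), beside 0.0186%, 0.316%, 0.874% and 2.16% of all genes. These were comparisons of 1 dose each. The direct comparisons with AF+BCNU gave 10 calls against AF and 12 against BCNU, again of 32 each. Against AF the background was 0.851%, 5.29%, 10.5% and 7.42% of all genes over the 4 times, and against BCNU it was 0.837%, 3.35%, 9.26% and 8.29%. Additivity was departed from in 5 of 32 values, 4 of them at 8 h (7.46% of all genes called) and 1 at 24 h (3.77%). No regulator departed at 2 or 4 h (0.0558% and 1.57% of all genes called). No 24 h effect of a single drug was called apart from its mean 4 and 8 h effect (0.139% of all genes for AF and 0.614% for BCNU). The comparisons at a given time shared their control arrays. Control cells at 4, 8 and 24 h gave 0 of 24 calls against untreated cells, with 1 value at an unadjusted p under 0.05 and a smallest adjusted p of 0.999, beside 0% of all genes.

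The regulators did not vary as 1 group over the 16 group means, which share the cell line and the array processing and, for every group but the untreated one, a time with other groups. Pearson's r was 0.46 between Ppargc1a and Ppargc1b, 0.72 between Ppargc1b and Esrra and 0.80 between Ppargc1b and Mterf1a, while Mtfr2 ran opposite to Ppargc1b (-0.87) and Mterf1a (-0.83). Nrf1 and Tfam were at 0.48. Among the 10161 genes that had a mean level above the median of all genes and no predicted or locus-style symbol, the profile closest to Ppargc1a was that of Enox1 (0.94), followed by Mccc1 and Smim1. For Ppargc1b it was Ralgapa2 (0.98), followed by Slc25a16 and Gpam, the last a glycerol-phosphate acyltransferase of lipid synthesis. For Mterf1a it was Arfgef2 (0.96), followed by Kmt2d and Rad54l2. For Mtfr2 the 3 closest were the immediate early genes Egr1, Zfp36 and Fos (0.97 each). The closest to Tfb2m was Smc5 at only 0.73.

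Genes that act with or upon PGC-1 changed in both directions under AF+BCNU. Of 41 measured genes of 42 listed, 5 were called higher and 8 lower at 8 h (5.72% and 5.58% of all genes), and 1 higher and 4 lower at 24 h (4.88% and 4.25% of all genes), with medians of -0.02 and -0.07, against 0.05 and 0.01 for all genes. Sirt1, the deacetylase that acts on PGC-1α, rose by 1.45 ± 0.12 at 4 h, 1.61 ± 0.12 at 8 h and 1.27 ± 0.12 at 24 h (adjusted p = 1.62e-07, 1.21e-08 and 1.96e-07). Prkab1, a regulatory subunit of AMP-activated kinase, and Tfe3, a lysosomal and metabolic transcription factor, rose by 0.73 ± 0.10 and 0.71 ± 0.10 at 8 h. Hcfc1, a chromatin cofactor, fell by 0.67 on the log2 scale at 8 h. At 24 h the genes that fell included Lpin1, a phosphatidate phosphatase that also coactivates with PGC-1α, by 0.71, the thyroid hormone receptor Thra by 0.64 and the forkhead factor Foxo1 by 0.62. At 4 h the split was 2 higher and 6 lower (2.53% and 3.31% of all genes), and at 2 h it was 1 higher (0.632%).

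The genes downstream of the regulators are read here beside the shares of all genes called. These were 1.49% at 2 h, 5.84% at 4 h, 11.3% at 8 h and 9.13% at 24 h. Of 44 nuclear respiratory chain subunits, 1 was called higher and 1 lower at 8 h (Cox7a1 at 0.64 ± 0.12 and Atp5h at -0.59 ± 0.13), and 0 at 24 h, when Ppargc1a and Ppargc1b were both lower. When arrays were centred on their own medians, the 8 h split was 1 higher and 2 lower. At 2 h the only call was Cox7b (0.54 ± 0.14), which centring removed. None of 25 citrate cycle and fatty acid oxidation genes was called at any of the 4 times (1 lower at 24 h with centred arrays), and none of 8 mitochondrially encoded genes. In the mitochondrial ribosome, 2 of 35 were called lower at 8 h (Mrps14 at -1.64 ± 0.38 and Mrps10 at -0.53 ± 0.15) and 1 higher at 24 h (Mrpl32 at 0.66 ± 0.15). The median changes at 8 h were 0.17 for respiratory subunits, 0.07 for citrate cycle and oxidation genes, 0.05 for the ribosome and -0.05 for the mitochondrially encoded genes, beside 0.05 for all genes. At 24 h they were 0.03, -0.07, 0.03 and 0.10, beside 0.01.

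The other factors of mitochondrial DNA expression, fission and transport are set beside the same shares of all genes, 1.49%, 5.84%, 11.3% and 9.13% at 2, 4, 8 and 24 h. Polg2, the accessory subunit of the mitochondrial DNA polymerase, rose by 0.87 ± 0.15, 1.67 ± 0.15, 1.74 ± 0.15 and 1.40 ± 0.15 at 2, 4, 8 and 24 h. It was the only one of 33 measured genes for mitochondrial DNA transcription and replication called at 2 and 24 h, while 3 were called higher and 3 lower at 8 h (2 and 3 with centred arrays), among them the pyrimidine nucleotide carrier Slc25a33 (1.02 ± 0.11), Mterf1b, and the single-strand binding protein Ssbp1 (-0.56 ± 0.13). Of 23 fission and fusion genes other than Mtfr2, the fusion GTPase Mfn2 at 8 h was the only one called at any of the 4 times (-0.61 ± 0.09, adjusted p = 6.53e-05). Among 22 carriers, Slc25a25, an ATP-magnesium and phosphate carrier, rose by 1.22 ± 0.15, 1.52 ± 0.15 and 1.29 ± 0.15 at 2, 4 and 8 h. The uncoupling protein gene Ucp3 fell by 0.77 at 8 h, and Slc25a42 was called lower at 4 and 8 h (-0.59 each). At 24 h Slc25a37 (0.63) and Slc25a30 (0.51) were called higher, but neither with centred arrays. Among 28 genes of protein import and folding, the mitochondrial chaperonins stood out: Hspe1 rose by 0.55, 0.61, 0.98 and 1.34 at the 4 times and its partner Hspd1 by 0.90 at 24 h, and no other gene of that list was called under AF+BCNU.

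**Figure D4:**
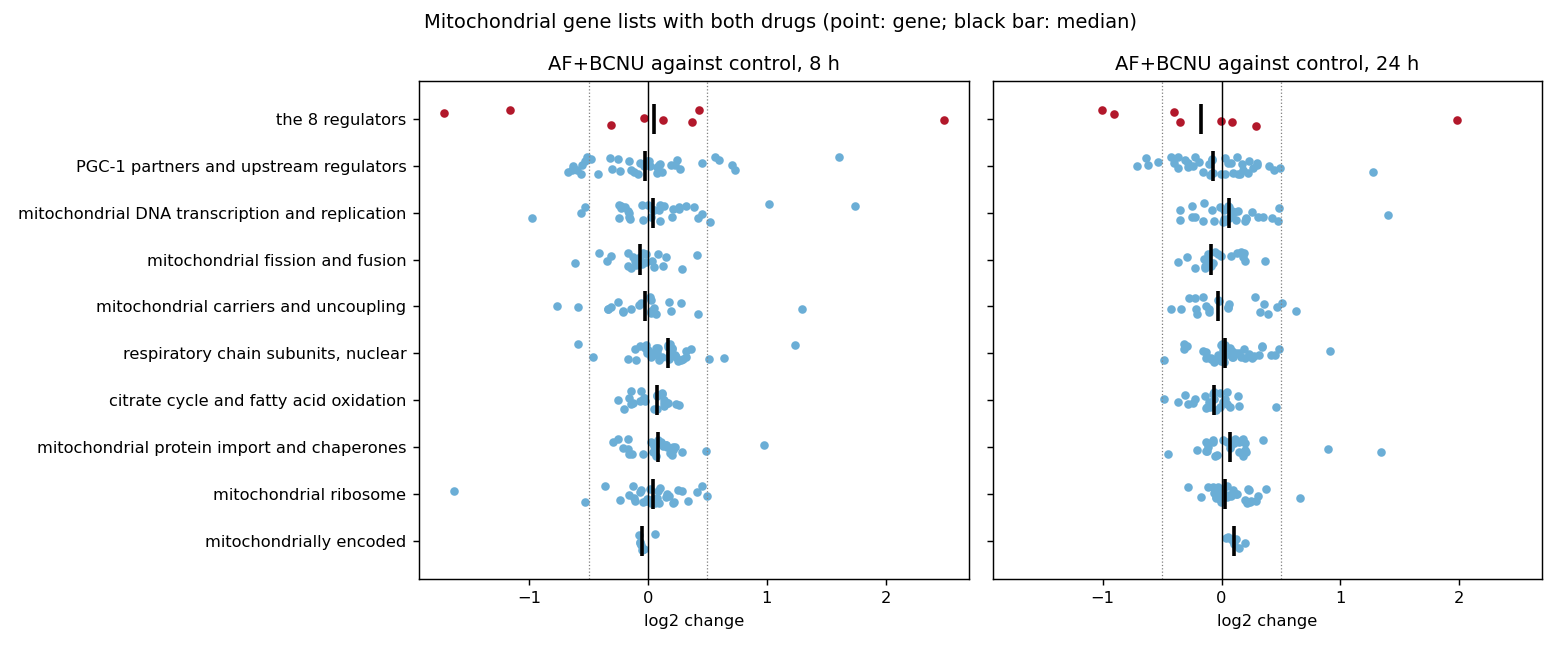
Log2 change under AF+BCNU against control at 8 h and 24 h for the 8 regulators and for each mitochondrial list; each point is 1 gene, the black bar the median and the dotted lines the size threshold of 0.5. The medians of the mitochondrial lists lie between -0.09 and 0.17, while single genes such as Polg2 (1.74 and 1.40) and Sirt1 (1.61 and 1.27) lie far above.

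Of 14 genes of brown and beige fat, 3 were called higher at 8 h, namely the elongase Elovl3 (1.28 ± 0.31), the lipid droplet protein Cidea (0.97 ± 0.29) and Cox7a1, beside 5.72% of all genes called higher, and none at 2, 4 or 24 h. Their summed linear level was 1068 to 1091 in AF+BCNU cells and 919.7 to 933.3 in untreated cells at 2 h. It was 1048 to 1096 in AF+BCNU cells and 828.7 to 870.1 in control cells at 4 h, and 1067 to 1310 against 755.8 to 825.9 at 8 h. The AF+BCNU arrays thus lay above the others at 2, 4 and 8 h. At 24 h the sum was 827.1 to 932.7 in AF+BCNU cells and 847.8 to 878.7 in control cells, where the groups overlapped. A linear sum weighs most the genes with the highest levels, here Cox7a1 (group means of 8.77 to 9.46). The median log2 changes of the 14 genes under AF+BCNU were 0.17, 0.13, 0.07 and 0.03 at 2, 4, 8 and 24 h. Those of all genes were 0.00, 0.03, 0.05 and 0.01. At 8 h the list as a whole thus lay close to all genes, although its sum was higher.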

How the data were processed

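The authors extracted total RNA from 3T3-L1 adipocytes and hybridised it to Affymetrix Mouse Gene 2.1 ST arrays. The values used here are log2 expression levels as deposited, which the authors computed by RMA, a method that corrects background, quantile-normalizes all arrays together and summarises the probes of each probe set. The RMA version is not given in the sources used here. Of 25293 probe sets, the platform annotation gave 1 symbol to 22030, several to 685 and none to 2578. Probe sets with 1 symbol were collapsed to 21506 genes by their median, which affected 465 genes and no regulator. A limma 3.58.1 model in R 4.3.3 fitted 16 group means (32 arrays, 16 residual degrees of freedom, prior of 3.50), and a two-sided moderated test was adjusted by Benjamini-Hochberg within each comparison over all genes. The median SE was 0.173, so the number of arrays limits precision. A call needed an adjusted p under 0.05 and a log2 change over 0.5 in size, as in the study. The script was tested on simulated data. The regulators and gene lists were chosen with earlier results of these data known. All regulators were named; of each list, up to 4 called genes with the largest change under AF+BCNU in the comparison discussed were eligible; and for regulators whose group means spanned over 1, the 3 genes with the highest correlation. The alternatives changed the scaling, variance prior, filter, collapse, arrays in the fit, 2 h reference and replicate block, and left out each array in turn. Promoter windows and gene identities came from RefSeq tables of GRCm38.p6. Columns of the study's own comparisons were not used.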

Additional observations from a re-analysis of the deposited data

Results flagged for a closer look

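A total of 6 tests of a difference between effects passed the threshold among the regulators, each in the limma fit over all genes with 2 arrays per group. For 5 of them the effect of AF+BCNU differed from the sum of the effects of AF and BCNU at the same time. At 8 h the difference was 0.93 ± 0.17 for Ppargc1a (adjusted p = 0.00173), -0.76 ± 0.20 for Ppargc1b (adjusted p = 0.0255), -1.94 ± 0.54 for Mterf1a (adjusted p = 0.0313) and 1.93 ± 0.41 for Mtfr2 (adjusted p = 0.0055). At 24 h it was 1.69 ± 0.41 for Mtfr2 (adjusted p = 0.021). Of all genes, 7.46% were called for this kind of difference at 8 h and 3.77% at 24 h. All 5 lost their calls with only the arrays of the same time in the fit. In the remaining case the AF+BCNU effect on Ppargc1a at 24 h differed from the mean of its 4 and 8 h effects, by -0.90 ± 0.15 (adjusted p = 0.000934), beside 3.12% of all genes called. Ppargc1a was the only regulator with a called difference of both kinds. Its AF+BCNU arrays at 8 h (7.58 and 7.57) lay among the control arrays (7.51 and 7.70), while both BCNU arrays (6.94 and 7.03) lay below them.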

How the results depend on the processing

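The AF+BCNU call of Ppargc1a at 24 h (-1.09 to -0.92), those of Ppargc1b at 8 and 24 h, of Mterf1a at 4 h and of Mtfr2 at all 4 times were kept under every alternative run, and no called value changed direction. Of 41 called values, 20 were kept under every alternative and 21 were lost under at least 1, while 5 uncalled values became called under 1. With only the arrays of the same time in the fit, which leaves fewer arrays, the counts of calls fell to 0 for BCNU against control (main count 2) and to 0 for the departure from additivity (main count 5), and the calls of Ppargc1b at 2 and 4 h and of Mterf1a at 8 h (adjusted p = 0.059) were lost. Under AF+BCNU, Ppargc1b at 2 h also lost its call against 4 h controls. Centring each array on its median moved the Ppargc1a difference between AF+BCNU and BCNU at 8 h to 0.48, under the size threshold.

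Leaving out single arrays gave 10 to 12 calls for AF+BCNU, 0 to 2 for BCNU, 3 to 6 for the departure from additivity, 8 to 10 for AF+BCNU against AF, 10 to 12 for AF+BCNU against BCNU, 1 to 2 for the 24 h effect against the earlier ones, and 0 throughout for AF, for AF against BCNU and for the later controls. The additivity count was 3 without the first control, AF or BCNU array at 8 h, and the BCNU count 0 without the first BCNU array at 8 h. The 24 h count was 2 without either BCNU array at 8 h. A fit with the replicate number as a block gave 1 call for BCNU (the Mtfr2 value at 4 h was lost) and changed no other count by over 1.5 times. The numbers did not pair the arrays: deviations from the group means correlated at -0.11 to 0.12 over 120 pairs of groups. Mtfr2 control levels and Mterf1b lay near background, and Mterf1a in AF+BCNU cells at 4 and 8 h lay near or below the array medians. This limits the fold changes of all 3 genes.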
